A study of Drosophila melanogaster with 6 samples.

Results

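The genes described here are 45 regulators of DNA methylation and chromatin, of 17807 genes of Drosophila melanogaster with a position on a chromosome arm in the RefSeq table (Release 6, dm6). They were chosen by name, as a list of proteins that act on methylated DNA, on histones or on nucleosomes, and fall into 7 groups by role. The study asked how lead exposure bears on genome methylation. Peaks came from MeDIP-seq of DNA from adult heads, which enriches fragments with an antibody to 5-methylcytosine and compares them with DNA kept aside before enrichment. There were 3 lead libraries, labelled 800 um, and 3 control libraries, labelled 0 um. All 6 were of wild-type genotype and carried the label F3. The labels do not say whether replicates were separate animals or cultures, so the p-values below measure the spread between these libraries, which may be technical. The labels give no sex, age or number of heads per library. The libraries hold DNA, so the labelled tissue could not be checked against markers.

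Flies have no counterpart of the vertebrate enzymes that copy CpG methylation onto new DNA. Their single gene of that enzyme family, Mt2, acts mainly on transfer RNA, and 5-methylcytosine in the adult fly genome is known to be scarce. Gene memory in the fly rests instead on Polycomb proteins, which keep genes silent through repressive histone marks, and on Trithorax proteins and nucleosome remodellers, which oppose them. In the fly brain these proteins set neuronal identity and take part in activity-dependent transcription.

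The lists held 3522, 1379 and 2536 peaks in lead replicates 1, 2 and 3, and 1746, 2414 and 2157 peaks in control replicates 1, 2 and 3. Sequencing depth is unknown here, so a missing peak does not show that a gene was unmethylated, and lists of different lengths find different numbers of genes. A peak marks enrichment by the antibody over input. No second measure of methylation was used here, so a peak, even in all 6 libraries, is not proof of a methylated site. In lead replicate 1, 32.1% of peaks lay on X, against 21.6% to 24.5% in the other 5 libraries. A gene was called occupied in a library when a peak overlapped its span or 1 kb on either side. Overlapping peaks of different libraries were merged into regions. A whole-number score of unstated meaning accompanies each peak. It is the authors' own value and is given below mainly as a percentile within its own list, where 100% is the highest score. A few scores are printed as they stand for Parp1. The stricter score setting applied 1 cutoff, the median of 47, to all lists. Their own medians were 48, 49 and 46 in lead and 54, 41 and 50 in control replicates 1, 2 and 3. That cutoff thus kept unequal shares of the lists.

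A peak was found at 19 of the 45 chromatin genes (42.2%) in at least 1 library, where 12.2% of all genes had one, and at 26 genes in none. Tet, spen and esc were occupied in all 6 libraries (6.67% of the 45, where 3.69% of all genes were). No chromatin gene was occupied in 3 lead and 0 control libraries (0.0618% of all genes were), and none in 0 lead and 3 control libraries (0.00562% of all genes were). By number of peaks, too, none had every lead library above every control library (0.0899% of all genes did) or every control library above every lead library (0.00562% of all genes did). These counts of 0 became 1 without control replicate 3, when Smr was found in every lead and no control library (2.22% of the 45, where 0.112% of all genes were). Without lead replicate 1 they became 2, when Su(z)2 and Ptip were found in every control and no lead library (4.44%, where 0.107% of all genes were). Only a gene with a peak can meet such rules, and 42.2% of the chromatin genes had one, against 12.2% of all genes. The shares of all genes, here and below, are thus not matched for occupancy. The number of libraries was 5 for Mi-2 and Parp1, 4 for Su(z)2, trx, Ptip, kis, nej and Smr, 3 for osa, mor and Su(var)2-10, and 2 for ph-p, Psc and HDAC4. The genes dom and chm were each occupied in 1 library (4.44% of the 45, where 3.12% of all genes were). Together the 19 genes carried 133 peaks in 61 regions.

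**Figure D1:**
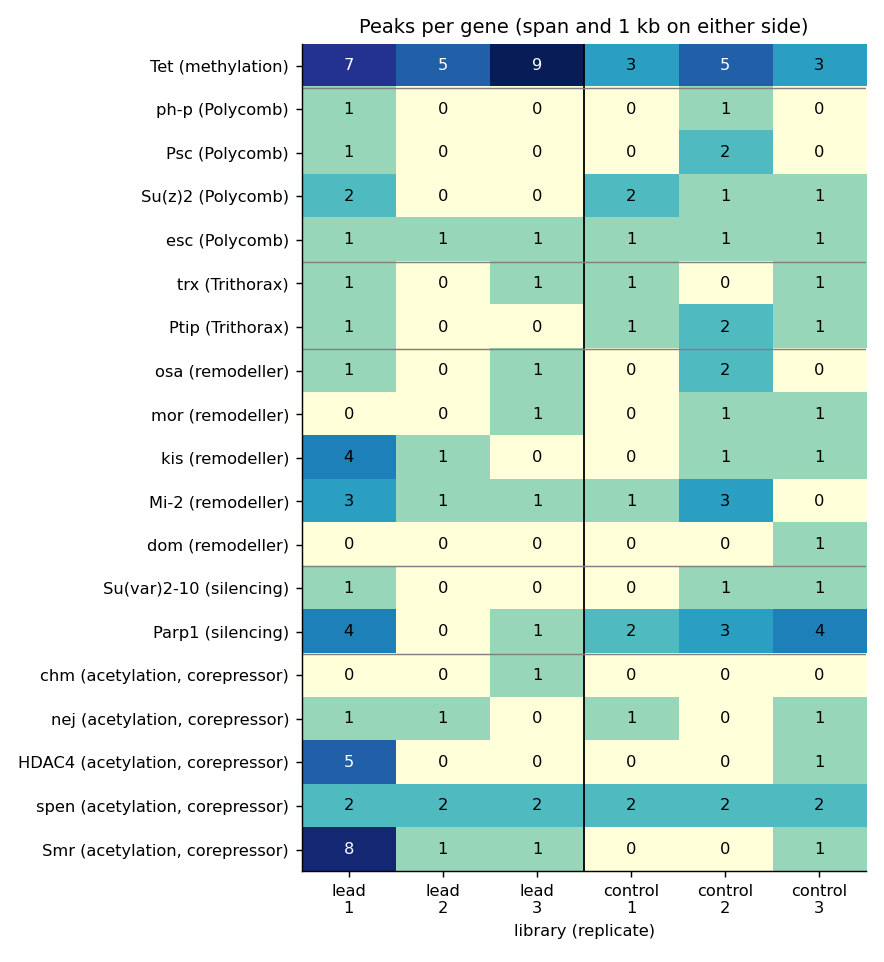
Number of peaks in each library (columns, lead replicates left of control replicates) at each of the 19 chromatin genes with a peak (rows, grouped by role); darker cells hold more peaks. Tet, esc and spen have a peak in every column, and the 8 peaks of Smr and 5 of HDAC4 in lead replicate 1 stand beside 0 or 1 in the other libraries.

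Lead replicates 1, 2 and 3 had a peak at 16, 7 and 10 of the 45 genes, and control replicates 1, 2 and 3 at 9, 13 and 14. The ranges of the groups overlapped, and the lowest and the highest number were both in lead libraries. Lead libraries averaged 11 ± 4.58 genes and control libraries 12 ± 2.65 genes (SD, n = 3 each), a difference of -1 gene that was smaller than the spread within either group. It turned to 1 without lead replicate 2, the shortest list. Over all 17807 genes the shares occupied were 10.3%, 4.79% and 7.91% in lead and 6.07%, 7.41% and 7.02% in control libraries.

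The chromatin genes are long, and long genes offer more room for peaks. Their median length was 8162 bp, against 1695 bp for all genes. The 19 with a peak had a median length of 21625 bp, against 4737 bp for the 26 without. Of genes of 20 kb or more, all 10 chromatin genes had a peak in at least 1 library, where 70% of all 1045 genes of that length had one. Between 5 and 20 kb the count was 7 of 20 (35.0%), where 25.1% of all genes had a peak. Under 5 kb it was 2 of 15 (13.3%), where 5.62% of all genes had one. Those 2, esc and mor, had peaks only in the 1 kb margin, inside neighbouring genes. With gene spans alone neither had a peak. Within the longest class 2 of 10 were occupied in all 6 libraries, where 29.7% of all genes were. No chromatin gene of 5 to 20 kb was occupied in all 6 libraries, where 6.07% of all genes of that length were, and 1 of the 15 under 5 kb was, where 1.35% of all genes were. In each length class the chromatin genes thus had a larger share with a peak in at least 1 library than all genes. Their share in all 6 libraries was larger only under 5 kb, through esc. Under 5 kb both results rest on the 1 kb margin. Within a class the chromatin genes may still be longer than the rest. All genes were also not split by gene type and include genes of long noncoding RNAs, so they are not matched to the chromatin genes in that respect.

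**Figure D2:**
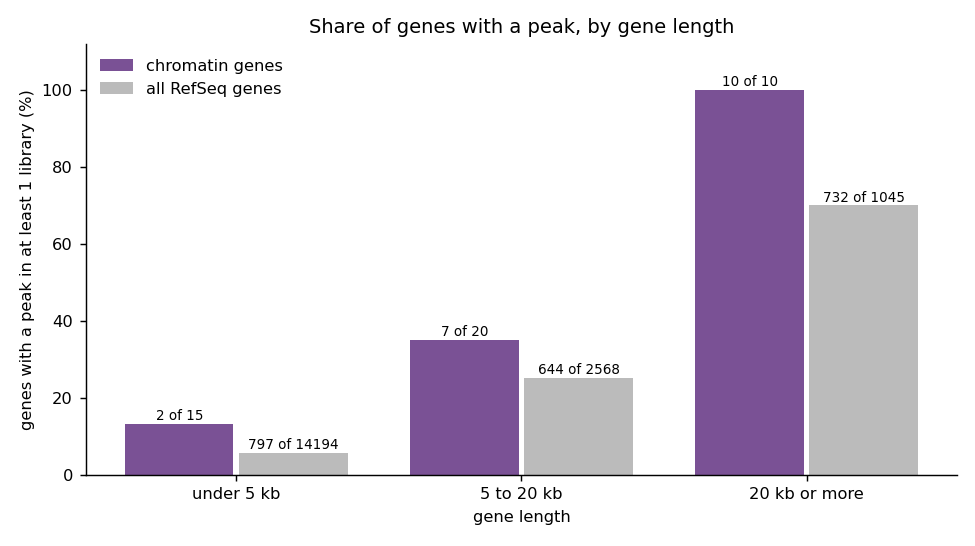
Percentage of genes with a peak in at least 1 library (y axis) in 3 classes of gene length (x axis), for the chromatin genes and for all RefSeq genes; the numbers above the bars give genes with a peak of genes in the class. All 10 chromatin genes of 20 kb or more have a peak, against 732 of 1045 of all genes of that length.

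Per length of gene, the chromatin genes held 52.3, 14.6 and 23.1 peaks per Mb in lead replicates 1, 2 and 3, and 17.0, 30.4 and 24.3 peaks per Mb in control replicates 1, 2 and 3. All genes held 26.8, 10.2 and 18.5 peaks per Mb in lead and 13.1, 17.5 and 16.0 peaks per Mb in control libraries. The density in chromatin genes was higher than in all genes in each of the 6 libraries, by 1.95, 1.44 and 1.25 times in lead and 1.30, 1.74 and 1.52 times in control libraries. A few genes held much of it, since Tet, Parp1, Smr and spen had 69 of the 133 peaks. Tet alone had 7 of 43, 5 of 12 and 9 of 19 peaks in lead replicates 1, 2 and 3. In control replicates 1, 2 and 3 it had 3 of 14, 5 of 25 and 3 of 20. The density without these genes was not computed. Chromatin genes averaged 30.0 ± 19.8 peaks per Mb in lead and 23.9 ± 6.70 peaks per Mb in control libraries (SD, n = 3 each), and the difference of 6.08 lay within the SD of either group. Without lead replicate 1 it turned to -5.07. Of all peaks, the chromatin genes took 1.22% in lead replicate 1 (95% Wilson interval 0.908 to 1.64, counting error only), 0.870% (0.498 to 1.51) in lead replicate 2 and 0.749% (0.480 to 1.17) in lead replicate 3. In control replicates 1, 2 and 3 the shares were 0.802% (0.478 to 1.34), 1.04% (0.702 to 1.52) and 0.927% (0.601 to 1.43). These intervals overlapped between all 6 libraries.

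**Figure D3:**
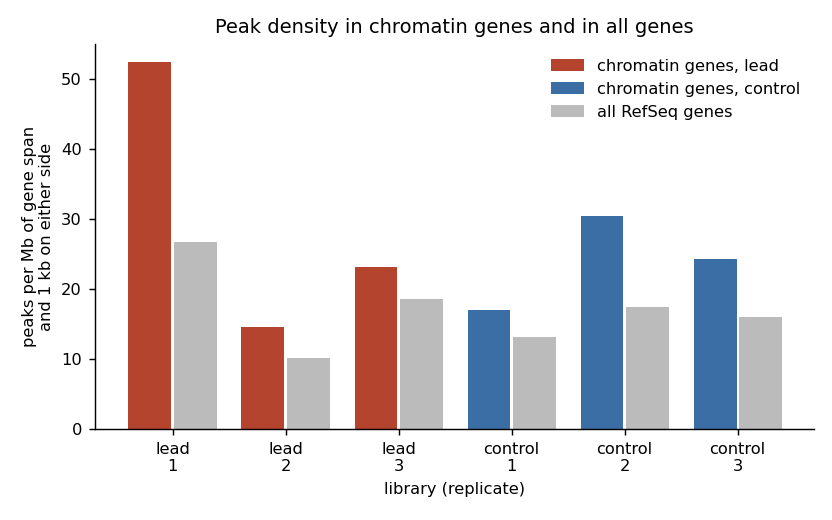
Peaks per Mb of gene span with 1 kb on either side (y axis) in each library (x axis), for the chromatin genes (coloured bars) and for all RefSeq genes (grey bars). The coloured bar is higher than the grey one in each library, and lead replicate 1 has the highest of both.

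The DNA methylation group has 4 genes: Tet, Mt2, MBD-like and MBD-R2. Tet, which lies on 3L at 2786207 to 2879158 (92952 bp), encodes the single fly homologue of the vertebrate enzymes that oxidise 5-methylcytosine, and in the fly it has been reported to act on methylated adenine in DNA and on RNA. It carried 7, 5 and 9 peaks in lead replicates 1, 2 and 3, and 3, 5 and 3 peaks in control replicates 1, 2 and 3. The groups met at 5, the value of lead replicate 2 and of control replicate 2, while the other lead libraries were above all control libraries. Tet averaged 7 ± 2.00 peaks in lead and 3.67 ± 1.15 peaks in control libraries (SD, n = 3 each), a difference of 3.33 peaks (exact permutation of library labels, two-sided, p = 0.2, adjusted over 2173 genes 1). With 3 libraries against 3 the smallest p is 0.1, so no gene could pass. No gene of the 2173 had an adjusted p under 0.05 (0% of genes), none had an unadjusted p under 0.05, and 17 genes (0.782%), none of them a chromatin gene, had the smallest p of 0.1. With the replicate number as a block, where the smallest p is 0.25, 0 genes passed as well.

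Tet had the most peaks of the 45 genes, 32 in 10 regions. Per length it held 0.562 peaks per 10 kb in a mean library, more than 90.0% of genes of 20 kb or more. Peaks were present in all 6 libraries at 3 of its regions, which lay between 22.2 and 42.6 kb from the left end of the gene in dm6. Of these, the region at 2824355 to 2825111 had the highest scores, at percentiles 95.1, 82.6 and 95.2 in lead and 88.3, 94.2 and 87.9 in control libraries. The region at 2808259 to 2808518 lay at percentiles 57.5, 58.4 and 62.4 in lead and 63.9, 43.3 and 78.1 in control libraries. The region at 2828442 to 2829232 ranged more widely, from 4.57 to 46.6 in lead and from 13.6 to 75.0 in control libraries.

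The lead libraries had their further peaks elsewhere in Tet. At 2872072 to 2872412 peaks came from 3 lead and 1 control libraries, the region at 2869516 to 2869807 in 2 lead and 1 control libraries, and the region at 2867684 to 2867993 in 2 lead and 0 control libraries. At 2801509 to 2801846 there were also peaks of 2 lead and 0 control libraries, both at low scores (percentiles 4.88 and 5.40). The last 3 regions, at 2822750 to 2823015, 2833185 to 2833401 and 2840723 to 2840970, were each found in 1 lead library. With the same number of peaks taken from each list, the 1379 highest by score, Tet had 2, 5 and 4 peaks in lead and 3, 2 and 2 peaks in control libraries. The groups then overlapped and the difference was 1.33 peaks. With peaks of at least the median score of 47 alone it was 0.333 peaks.

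Mt2, MBD-like and MBD-R2 had no peak in any library. The nearest peak of any library lay 25.8 kb from Mt2, 16.8 kb from MBD-like, which encodes a methyl-CpG binding domain protein of the fly nucleosome remodelling and deacetylase complex, and 13.0 kb from MBD-R2, a protein of the nonspecific lethal complex that acts at promoters. All 3 are short, at 1163, 1774 and 4123 bp.

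**Figure D4:**
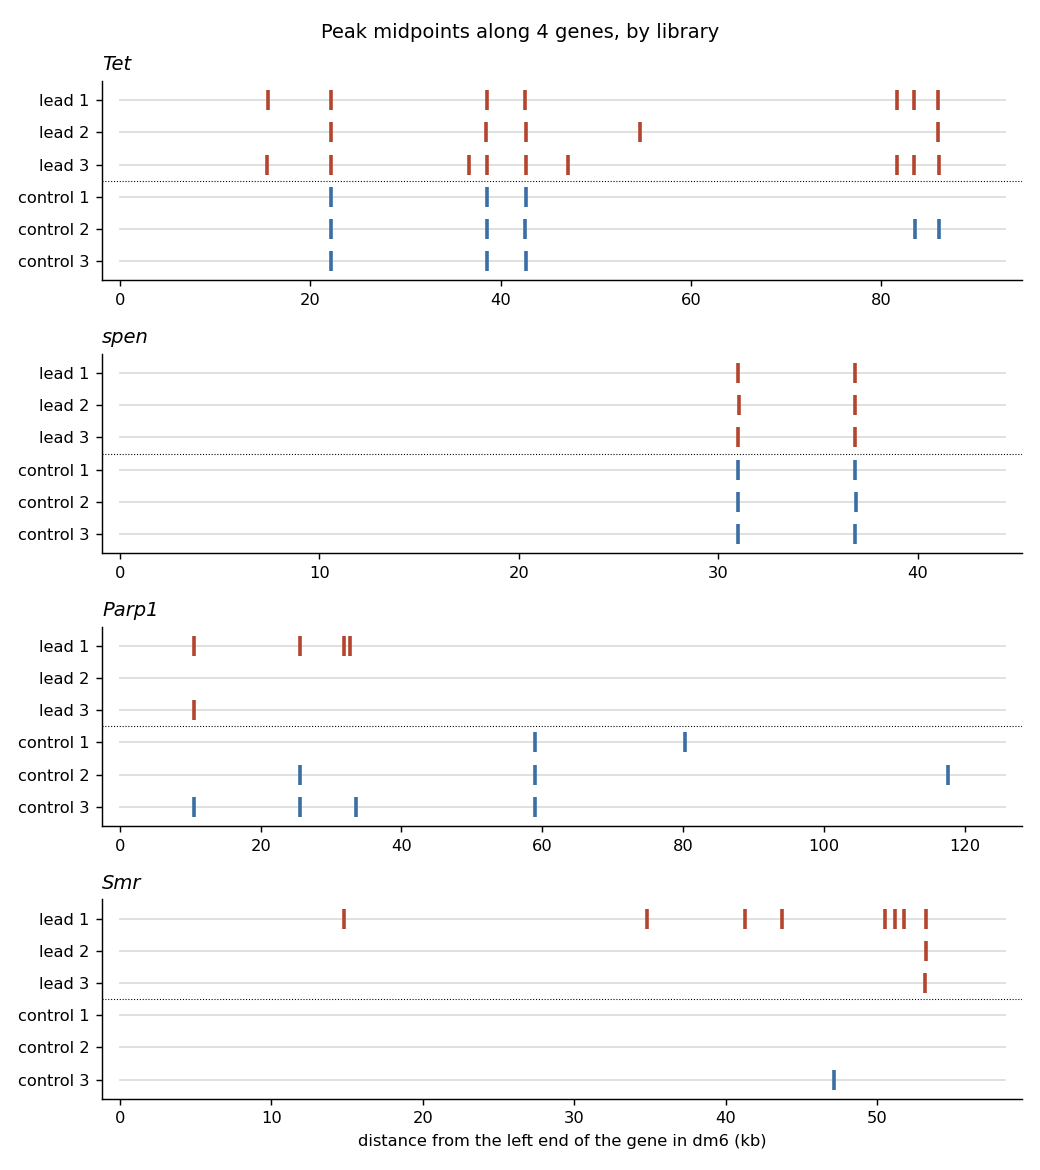
Position of each peak's midpoint along Tet, spen, Parp1 and Smr (x axis, kb from the left end of the gene in dm6; the scale differs between genes) in each library (rows, lead above control). The 3 shared regions of Tet and both regions of spen line up in all rows, a region of Parp1 has peaks in the 3 control rows alone, and a region near the right end of Smr has peaks in the 3 lead rows alone.

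Of the 10 Polycomb group genes, 4 had a peak: esc, Su(z)2, Psc and ph-p. The esc gene, on 2L at 11827204 to 11829405, encodes a WD40-repeat subunit of the complex that methylates histone H3 for Polycomb silencing. Each library had 1 peak at esc, and all 6 fell in 1 region at 11829929 to 11830251, which lies 524 bp outside the gene span and inside the neighbouring Pde1c. Its percentiles were 74.0, 65.3 and 89.7 in lead and 70.7, 54.1 and 58.4 in control libraries. Counting gene spans alone, esc had no peak, so its occupancy rests on the 1 kb margin.

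Su(z)2 and Psc are neighbouring paralogues on 2R, 15506 bp apart, whose products compact chromatin in the other main Polycomb complex. Su(z)2 had 2, 0 and 0 peaks in lead and 2, 1 and 1 peaks in control libraries, so it was occupied in 1 lead and 3 control libraries. A region at 13003385 to 13003673 had a peak in each of these 4 libraries. Its percentile was 85.8 in lead replicate 1 and 44.2, 74.6 and 56.5 in control replicates 1, 2 and 3. The difference in peaks per gene was -0.667 (exact permutation, two-sided, p = 0.6, adjusted 1). Psc had 1, 0 and 0 peaks in lead and 0, 2 and 0 peaks in control libraries, at percentile 8.94 in lead replicate 1 and at 0.663 and 11.5 in control replicate 2. The adjacent duplicates ph-d and ph-p on X encode Polyhomeotic, which joins Polycomb complexes into larger assemblies. Reads from such similar copies may be hard to place. A peak at the right end of ph-p was found in 1 lead and 1 control library. Between the copies a peak in 1 lead and 1 control library lay 1174 bp from ph-d, just outside its margin.

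Pc, E(z), Su(z)12, Scm and Asx, besides ph-d, had no peak. Pc encodes the chromodomain protein that reads the mark written by E(z), Su(z)12 is a partner of E(z), Scm links both complexes, and Asx belongs to the complex that removes ubiquitin from histone H2A. The nearest peak lay 11.9 kb from Pc and 54.5 kb from Scm.

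Among the 6 genes of the Trithorax group and of histone methylation at active genes, trx and Ptip had peaks. Ptip encodes a protein of the complex around the histone methyltransferase Trr. Its values were 1, 0 and 0 peaks in lead and 1, 2 and 1 peaks in control libraries. It was thus occupied in 1 lead and 3 control libraries, with a difference of -1 peak (exact permutation, two-sided, p = 0.3, adjusted 1). The peak at 14027600 to 14027884 on 3L was present in all 4, at percentile 78.6 in lead replicate 1 and 51.0, 67.3 and 49.2 in control replicates 1, 2 and 3. Su(z)2 and Ptip were the 2 chromatin genes found in at least 2 more control than lead libraries (4.44%, where 0.241% of all genes were), and for both the only lead library was replicate 1, the longest list. They were also occupied in 1 lead and 3 control libraries with equal numbers of peaks. The share of all genes is matched to the chromatin genes for neither length nor occupancy.

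The trx gene, which encodes a histone H3 methyltransferase that maintains active Hox genes, had 1, 0 and 1 peaks in lead and 1, 0 and 1 peaks in control libraries, all in the region at 14278754 to 14279143 on 3R. With equal numbers of peaks, control replicate 1 alone kept it. The methyltransferase genes ash1, trr and Set2, and ash2, which encodes a shared subunit of such complexes, had no peak. A region with a peak in all 6 libraries lay 3559 bp from trr, in arm.

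Of the 8 remodeller genes, Mi-2, kis, osa, mor and dom had peaks and brm, Iswi and Chd1 had none. Mi-2, the ATPase of the nucleosome remodelling and deacetylase complex, had 3, 1 and 1 peaks in lead and 1, 3 and 0 peaks in control libraries. Its 4 regions all lay where the gene overlaps Su(Tpl), so the peaks cannot be given to one of the pair. The difference of 0.333 peaks (exact permutation, two-sided, p = 1) turned to -0.333 without lead replicate 1 or control replicate 3. The kis gene, which encodes a chromodomain helicase that acts with Trithorax proteins, had 4, 1 and 0 peaks in lead and 0, 1 and 1 peaks in control libraries. They were scattered over 6 regions, of which 5 were each found in 1 library.

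The osa, mor and brm genes encode subunits of the Brahma complex, the fly form of SWI/SNF. The signature subunit gene osa had 1, 0 and 1 peaks in lead and 0, 2 and 0 peaks in control libraries, in 2 regions. The scaffold gene mor had 0, 0 and 1 peaks in lead and 0, 1 and 1 peaks in control libraries. All of these lay in 1 region, 780 bp outside mor and inside Hel89B, at percentiles of at most 11.9. The ATPase gene brm, at 12788 bp, had none, and the nearest peak was 43.2 kb away. The dom gene, which encodes an ATPase that exchanges histone variants, had 1 peak, in control replicate 3.

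Of the 6 genes of heterochromatin and silencing, Parp1 and Su(var)2-10 had peaks. Parp1, on 3R at 3461351 to 3587054, encodes the fly poly(ADP-ribose) polymerase, which loosens chromatin at sites of transcription and damage, and at 125704 bp it is the longest of the 45 genes. It had 4, 0 and 1 peaks in lead and 2, 3 and 4 peaks in control libraries. The groups overlapped, since lead replicate 1 was level with the highest control library. Parp1 averaged 1.67 ± 2.08 peaks in lead and 3.00 ± 1.00 peaks in control libraries (SD, n = 3 each), a difference of -1.33 peaks (exact permutation, two-sided, p = 0.5, adjusted 1).

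The 14 peaks of Parp1 fell in 8 regions, of which 5 were each found in 1 library. The region at 3520121 to 3520397 was found in 0 lead and 3 control libraries, at percentiles 51.0, 70.2 and 53.4 in control replicates 1, 2 and 3. It was the 1 such region among the 61 of the chromatin genes (1.64%, where 0.154% of all 4538 regions were). Without lead replicate 1, 3 regions of chromatin genes were found in every control library and in neither lead library (6.82% of 44, where 1.19% of all regions were). The other regions of Parp1 with more than 1 library were at 3471772 to 3472091 (2 lead and 1 control libraries) and at 3486774 to 3487075 (1 lead and 2 control libraries). With equal numbers of peaks, Parp1 had 0, 0 and 0 peaks in lead and 1, 2 and 1 peaks in control libraries. The groups did not overlap there, and the difference was -1.33 peaks. Parp1 was the 1 chromatin gene occupied in 0 lead and 3 control libraries under that setting (2.22%, where 0.0786% of all genes were). The lowest score kept differed, at 53, 19 and 44 in lead and 39, 38 and 43 in control replicates 1, 2 and 3. The best Parp1 peaks of lead replicates 1 and 3, each with a score of 43, were thus dropped. Control replicate 2 kept a Parp1 peak with a score of 42.

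Su(var)2-10, which encodes a SUMO ligase that acts in silencing and chromosome structure, had 1, 0 and 0 peaks in lead and 0, 1 and 1 peaks in control libraries. All 3 lay in 1 region at 9120071 to 9120387 on 2R, at percentile 61.3 in lead replicate 1 and at 71.5 and 59.8 in control replicates 2 and 3. The gene of HP1a, the main heterochromatin protein, Su(var)3-9, the methyltransferase that makes the mark HP1a binds, Su(var)3-7, a zinc-finger partner of HP1a, and G9a, a methyltransferase with roles in memory in the fly, had no peak. The nearest peak lay 34.4 kb from the HP1a gene.

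Of the 7 genes of acetylation, deacetylation and corepression, spen, Smr, HDAC4, nej and chm had peaks. The spen gene, on 2L at 159032 to 203397, encodes a large RNA-binding protein of the family of Notch and nuclear receptor corepressors. It was the most even of the genes with several peaks, with 2 in every lead and every control library, in the same 2 regions. The region at 189561 to 190448 had the highest scores of any region in the 45 genes, at percentiles 98.0, 96.4 and 98.1 in lead and 96.6, 97.4 and 98.3 in control libraries. The region at 195707 to 196097 lay at percentiles 83.0, 41.0 and 55.9 in lead and 63.9, 74.6 and 59.8 in control libraries. Both regions were kept in all 6 libraries with equal numbers of peaks. The neighbouring kis starts 7337 bp beyond spen and had no region found in more than 2 libraries.

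Smr and HDAC4 lie on X and had most of their peaks in lead replicate 1, the library with 32.1% of its peaks on X. Smr, on X at 12684203 to 12742618, encodes a corepressor that binds nuclear receptors and histone deacetylases. It had 8, 1 and 1 peaks in lead and 0, 0 and 1 peaks in control libraries. Lead replicate 1 stood apart, and the other 2 lead libraries were level with control replicate 3. The difference was 3.00 peaks (exact permutation, two-sided, p = 0.3, adjusted 1), 0.667 without lead replicate 1 or with equal numbers of peaks, and 0.333 with a score of at least the median. Smr was the 1 chromatin gene found in at least 2 more lead than control libraries (2.22%, where 0.618% of all genes were).

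Of the 9 regions of Smr, 7 were found in lead replicate 1 alone and 1 in control replicate 3 alone, and 3 of the 7 also overlapped lncRNA:CR43963. The region at 12737267 to 12737524 was found in 3 lead and 0 control libraries, at percentiles 34.2, 28.6 and 5.40 in lead replicates 1, 2 and 3. It was the 1 such region among the 61 (1.64%, where 0.441% of all regions were). With a score of at least the median of 47, or with equal numbers of peaks, no region of the 45 genes was found in 3 lead and 0 control libraries. Regions found in every lead and no control library numbered 2 without lead replicate 3 (3.45%, where 0.884% of all regions were) and 2 without control replicate 2 (3.57%, where 1.25% were). Without lead replicate 2 there were 3 (5.08%, where 4.73% of all regions were), a share near that of all regions.

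HDAC4, which encodes a class II histone deacetylase with a role in fly long-term memory, had 5, 0 and 0 peaks in lead and 0, 0 and 1 peaks in control libraries. A region at its right end, at 13285132 to 13285374, held the control peak and 1 of the 5 of lead replicate 1. The nej gene, also on X, encodes the acetyltransferase CBP. It had 1, 1 and 0 peaks in lead and 1, 0 and 1 peaks in control libraries, all in the region at 9665817 to 9666157, at percentiles 95.8 and 50.5 in lead replicates 1 and 2 and 42.5 and 45.6 in control replicates 1 and 3. The acetyltransferase gene chm had 1 peak, in lead replicate 3.

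HDAC1, the class I deacetylase gene also called Rpd3, and Sirt1, a sirtuin deacetylase gene, had no peak. HDAC1 lay just outside the rule: a region found in all 6 libraries lay 1043 bp from its span, in Src64B, on 3L at 4625351 to 4625691. A margin of 2 kb adds HDAC1 and ph-d to the occupied genes, which then number 21, of which 4 are occupied in all 6 libraries. With gene spans alone 17 were occupied, of which 2 in all 6 libraries. The shares of all genes by these 2 rules were not counted.

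None of the 4 insulator and GAGA factor genes had a peak. Trl encodes GAGA factor, which opens chromatin at promoters and Polycomb response elements, and CTCF, su(Hw) and mod(mdg4) encode insulator proteins. The nearest peak was 2.80 kb from CTCF, in a region found in all 6 libraries, and 15.1 to 31.2 kb from the other 3. Over all 26 genes without a peak the nearest one lay at a median of 21.5 kb, from 1.04 to 58.2 kb, and it was over 10 kb away for 21 of them.

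**Figure D5:**
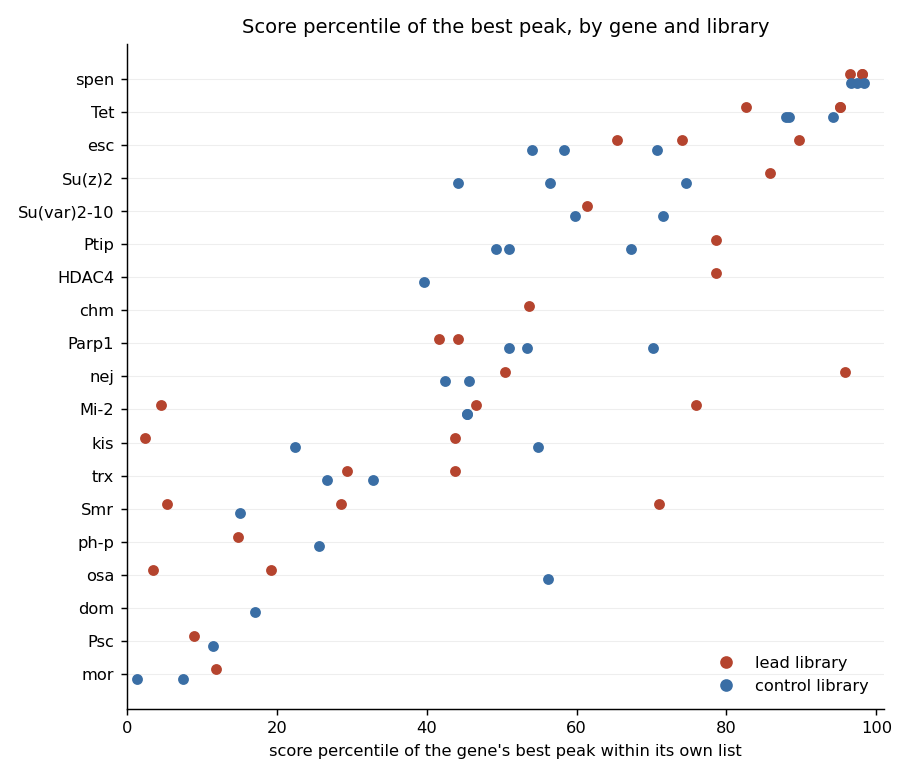
Percentile of the score of each gene's best peak within the list of its own library (x axis), for the 19 chromatin genes with a peak (rows, by median), with a point per library that has a peak. The points of spen lie above 96 and those of Tet above 82 in all 6 libraries, while those of mor and Psc lie below 12; lists differ in length, so positions of lead and control points are not compared.

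Among the 61 regions, peaks of those found in all 6 libraries had higher scores and were wider than peaks of those found in 1. The 6 regions found in all 6 libraries, 3 in Tet, 2 in spen and 1 at esc, held 36 peaks with a median percentile of 72.4 and a median width of 457 bp. The 32 regions found in 1 library had a median percentile of 18.4 and a median width of 243.5 bp. Regions in 1 library made up 52.5% of those in chromatin genes (35.5% of all regions), and regions in all 6 libraries 9.84% (19.6% of all regions). Of the 32, lead replicate 1 held 17, of which 11 were on X, while the other 5 libraries held 2 to 5 each. By library the chromatin genes on X held 15, 2 and 1 peaks in lead and 1, 1 and 3 peaks in control libraries. Those on autosomes held 28, 10 and 18 peaks in lead and 13, 24 and 17 peaks in control libraries. Leaving out the 8 genes on X, density differed by 1.01 peaks per Mb in place of 6.08.

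With equal numbers of peaks, lead replicates 1, 2 and 3 had a peak at 10, 7 and 4 chromatin genes, and control replicates 1, 2 and 3 at 9, 9 and 10. They averaged 7 ± 3.00 genes in lead and 9.33 ± 0.577 genes in control libraries (SD, n = 3 each). Lead replicate 1 was level with the highest control library, so the groups overlapped. The peaks in chromatin genes numbered 12, 12 and 8 in lead and 12, 12 and 12 in control libraries.

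A wider list of 78 other chromatin genes had a median length of 4841 bp, against 1695 bp for all genes. It was not split by length class, so its shares are not matched for length. Of the 78, 20 had a peak in at least 1 library (25.6%, where 12.2% of all genes had one). None was occupied in 3 lead and 0 control libraries, or in 0 lead and 3 control libraries. Jarid2, jing, Kdm4B, gpp, Sirt6, Sin3A and mle were occupied in all 6 libraries (8.97% of the 78, where 3.69% of all genes were). These 7 were named after their values had been seen.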

How the data were processed

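The submitters' processing notes name cutadapt, Bowtie2 2.1.0 and the build dm6. The input was a share of the adaptor-ligated, sonicated DNA, per the labels' protocols. The program that called the peaks is not given in the sources used here, nor are its settings. The authors deposited 1 peak list per library, in which the name of each peak sets a single IP against its own input, with a whole-number score per peak; the peak width in bp is the other deposited value.

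Repeated rows were dropped. Genes were matched by symbol to a RefSeq table (17872 genes, 17807 with a position on a chromosome arm), which gives no strand, exons or sequence, so gene starts and ends could not be told apart and no sequence is shown. Coordinates are 1-based. Peaks overlapping by at least 1 bp were merged into regions. Density is peaks over the merged gene windows.

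Peaks per gene were tested for every gene with a peak by exact permutation of library labels (20 assignments) with Benjamini-Hochberg adjustment. No p is given for values over the 45 genes. The genes and lists were chosen with earlier results of these data known. All 45 are accounted for; those given in full were occupied in all 6 libraries, differed by 2 or more libraries, were occupied in all libraries of 1 group, or had the most peaks. Other named genes of the list are given by their counts. Alternatives were a stricter score, equal numbers of peaks, other margins, the peak midpoint, merging within 100 bp, leaving out each library and the replicate number as a block. Functions were tested on simulated data. The tools were matplotlib 3.10.9, scipy 1.17.1, pandas 2.3.3 and numpy 2.4.6 under Python 3.11.15.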

Additional observations from a re-analysis of the deposited data

How the results depend on the processing

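Of 255 alternative values, 232 were counted as unchanged. For counts this meant staying within 1.5 times. For the other group values it meant keeping direction and moving by less than the spread between libraries. For single genes it meant only keeping direction or no difference, whatever the size. Tet at 0.333 in place of 3.33 peaks was thus among the 232. Neither the replicate block nor the count of genes with an adjusted p under 0.05 could change a value. Leaving out the genes on X was added after seeing the data. Every statement on absent peaks is limited by the unknown sequencing depth. The difference in density of 6.08 peaks per Mb turned to -1.22 with a score of at least the median and to -1.62 with equal numbers of peaks. The total of 61 regions was 19 and 28 there, and regions in all 6 libraries numbered 2 with the stricter score. Regions with 3 lead and 0 control libraries numbered 0 under both and without genes on X. Parp1 was the 1 gene of the 45 occupied in 0 lead and 3 control libraries under both. With equal numbers of peaks 0.0786% of all genes were. The share of all genes with the stricter score was not counted, so that count has no background. These settings counted fewer peaks or genes, and the cause of the changes was not tested.

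Leaving out each library in turn, the difference in occupied genes ranged from -3.50 to 1, and the difference in density from -5.07 to 13.8 peaks per Mb. Regions ranged from 44 to 59, with 1 to 3 in every lead and no control library and 1 to 3 the other way. Occupied genes ranged from 18 to 19, with 3 to 4 in all libraries, 0 to 1 in every lead and no control library and 0 to 2 the other way. Fewer libraries then have to hold or lack a peak. The difference of Mi-2 ranged from -0.333 to 1.17 peaks, that of Tet from 2.33 to 4.33 (0.333 with the stricter score), that of Parp1 from -2.50 to -0.500 and that of Smr from 0.667 to 4.17 (0.333 with the stricter score).

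The labels do not say that replicate numbers pair the libraries. Correlations of deviations in peaks per gene were -0.422, -0.492 and -0.123 between lead and control libraries of equal number. Between unlike numbers they ran from -0.160 to 0.546. The highest was for lead replicate 2 and control replicate 1, the shortest list of each group. Whether these values follow list length was not tested, so they cannot decide whether libraries were paired. The replicate block leaves differences and counts as they are (-1 gene, 6.08 peaks per Mb), and 0 genes passed with it, where the smallest sign-flip p is 0.25.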

Other observations

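Sirt6, a sirtuin deacetylase gene outside the list of 45 that was picked after its values were seen, had 5, 5 and 4 peaks in lead and 5, 6 and 5 peaks in control libraries within a gene of 6501 bp on 3R and its 1 kb margins. They fell in 6 regions, and 3 of these were found in all 6 libraries. The region at 10255492 to 10256584, 1093 bp wide, had percentiles from 92.5 to 98.1. The histone methyltransferase gene gpp, of 42420 bp, had 7, 2 and 5 peaks in lead and 4, 4 and 3 peaks in control libraries, and the groups overlapped.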
